A study of Mus musculus with 12 samples.

Results

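The genes described here are 10 genes of the endoplasmic reticulum (ER) stress programme: the chaperone and foldase genes Hspa5, Hsp90b1, Calr and Pdia4, the partner genes Sdf2l1, Dnajb9 and Creld2, the degradation genes Herpud1 and Edem1, and Xbp1, which encodes a transcription factor of this programme. They were taken from a fixed list of names, and all 10 of the 10 names had at least 1 probe set that carried no other symbol. Together they had 21 probe sets, and for each gene the probe set with the highest mean over the 12 arrays stood for it, as for all 18194 genes tested.

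The cells were A2C12, a lung tumour line derived from a mouse that carried both a c-myc and a c-raf transgene, with C57BL/6 given as the background strain. All 4 groups are sorts of that 1 line, so all carry the same transgenes. A side population (SP) is the small fraction of cells that pumps out the DNA dye Hoechst, and non-SP cells are those that keep it. Both fractions were taken without the antibody (non-SP untreated, SP untreated) and after it (non-SP anti-EpCAM, SP anti-EpCAM), which gave 4 groups of 3 biological replicates. Treated cells had received a monoclonal antibody against mouse EpCAM, an epithelial surface protein, at 100 µg/ml for 48 h before staining with Hoechst at 5 µg/ml for 90 min, and the treatment of the others is given as none. Reserpine, a blocker of dye export, is named at 50 µmol/l as present or absent in the staining, without saying in which samples. RNA was measured on an Affymetrix mouse array, and every level below is a deposited log2 value, so that a difference of 1 is 2-fold.

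Proteins that enter the ER are folded there by chaperones, and misfolded ones are drawn back into the cytosol and degraded. When unfolded protein builds up, the sensor Ire1 splices Xbp1 mRNA and the sensor Atf6 is cut free, and both resulting factors raise transcription of chaperone and degradation genes, while the sensor Perk slows translation and favours Atf4. Many genes of this programme carry an ER stress response element (ERSE) near their start, made of CCAAT, a gap of 9 bases, and CCACG. Secretory cells such as those of the alveolar epithelium use the programme heavily, and tumour cells with strong growth signals often do so too.

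The element was searched on both strands in RefSeq windows of the GRCm38.p6 build, from 250 bases before to 50 bases after a gene's start, and all 10 genes had 1 such window. An exact ERSE lay in the windows of 4 of the 10 genes, Hspa5, Hsp90b1, Calr and Creld2, against 39 of all 32851 windows (0.119%). The related ERSE-II, in which ATTGG and CCACG are 1 base apart, lay in that of Herpud1 and in 12 of all windows (0.0365%). The sites are shown because several of the genes share this sequence. Genes of this programme are known partly through the element, so its presence among the listed genes is a description and not independent of how they came to be listed. They run 5′ to 3′ on the strand that holds the motif, with 5 flanking bases on each side and the fixed bases in capitals.

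Hspa5, chr2:34772025-34772043, 65 to 47 bases before the start: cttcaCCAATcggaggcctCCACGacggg
Hsp90b1, chr10:86705638-86705656, 212 to 194 bases before the start: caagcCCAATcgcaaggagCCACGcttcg
Hsp90b1, chr10:86705533-86705551, 107 to 89 bases before the start, opposite strand: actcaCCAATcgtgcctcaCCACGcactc
Calr, chr8:84847075-84847093, 162 to 144 bases before the start, opposite strand: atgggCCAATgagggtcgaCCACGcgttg
Creld2, chr15:88819520-88819538, 126 to 108 bases before the start, opposite strand: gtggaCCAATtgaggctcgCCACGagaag
Herpud1, chr8:94386377-94386387, 52 to 42 bases before the start: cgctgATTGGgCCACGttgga

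All 6 sites lie upstream of the annotated start. With at most 1 of the 10 fixed ERSE bases allowed to differ, 6 of the 10 windows held a match, those of Pdia4 and Herpud1 being the added ones, against 494 of all windows and 1.72% of all genes with a window. That looser rule, like the motif search as a whole, was chosen after the members' values were known. The windows of Sdf2l1, Dnajb9, Edem1 and Xbp1 held no match to either rule. For Edem1 the window lies within the annotated span of the gene rather than at its outer end. The motif TGACGTGG, known as a binding core of spliced Xbp1 and Atf6, were in none of the 10 windows and in 0.676% of all windows. The 250 bases before the start of Hspa5 are printed whole to show the site in its surroundings, at chr2:34771840-34772089 on the plus strand with the ERSE in capitals.

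Hspa5 upstream: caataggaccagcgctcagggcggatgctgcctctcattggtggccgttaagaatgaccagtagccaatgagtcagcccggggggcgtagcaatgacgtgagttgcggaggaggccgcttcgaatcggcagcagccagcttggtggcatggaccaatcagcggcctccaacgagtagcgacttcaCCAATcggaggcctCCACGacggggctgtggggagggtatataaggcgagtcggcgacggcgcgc

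Over all 45101 probe sets, array medians lay between 5.72 and 6.06, and arrays are centred on these medians below. Over genes, the mean correlation of an array with the others was 0.982 and 0.985 for the non-SP and SP anti-EpCAM arrays numbered 2. It was at least 0.987 elsewhere. The actin 3′ minus 5′ signal, a sign of RNA quality, was 0.895 and 1.03 on those arrays and at most 0.733 elsewhere, so the group comparisons are also described without them. Of the epithelial markers, Epcam was at a mean of 8.11, Krt8 at 8.77, Krt18 at 6.55, Krt19 at 11.7 and Cdh1 at 6.35. The lung markers Nkx2-1, Sftpc and Sftpb were at 5.55, 5.64 and 7.44, and the median gene at 7.02. Of the leukocyte markers, Ptprc was at 3.42, Cd79a at 5.43, Cd3e at 6.76, Cd68 at 7.33 and Cd14 at 8.94. The macrophage receptor gene Csf1r was at 9.98. Endothelial markers ran from 4.50 (Tek) to 6.70 (Kdr), and fibroblast markers from 9.27 (Dcn) to 12.6 (the collagen gene Col1a2). By limma 0 of 8 epithelial, 0 of 6 leukocyte, 0 of 4 endothelial and 0 of 5 fibroblast markers passed in any comparison. Of all genes 0 (0%) passed as well. The marker values stand beside those of the 10 genes as a description. The part of these cell types in the values below was not tested. In RNA from many cells a change in the share of cells cannot be told apart from a change in RNA per cell.

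Hspa5 encodes BiP, the main Hsp70 chaperone of the ER lumen and the partner that keeps the stress sensors inactive. Its level was 13.89, 13.58 and 13.96 in non-SP untreated cells and 14.21, 13.76 and 13.96 in SP untreated cells, in the order of the replicate numbers. In non-SP anti-EpCAM cells it was 14.19, 13.86 and 13.69, and in SP anti-EpCAM cells 14.02, 14.26 and 13.64. The lowest array was an untreated and the highest a treated one, but every pair of groups compared overlapped. The log2 difference of SP from non-SP cells was 0.17 ± 0.21 (SE) without and 0.06 ± 0.21 (SE) with the antibody. That of treated from untreated cells was 0.11 ± 0.21 (SE) in non-SP and -0.00 ± 0.21 (SE) in SP cells. The other probe sets of Hspa5, with means of 13.11 and 10.20, gave 0.13 and 0.11 for SP minus non-SP untreated cells. For treated cells they gave 0.20 and -0.18, which differ in sign. For the antibody they gave 0.08 and 0.15 in non-SP and 0.14 and -0.13 in SP cells.

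Hsp90b1 encodes Grp94, the Hsp90 chaperone of the ER. It was at 13.26, 13.34 and 13.38 in non-SP untreated cells and at 13.22, 13.30 and 13.48 in SP untreated cells. With the antibody it was at 13.11, 12.81 and 13.30 in non-SP and at 13.51, 13.45 and 13.11 in SP cells. The treated non-SP array numbered 2 was the lowest of the 12, and the groups overlapped in every comparison. The difference of SP from non-SP treated cells, 0.28 ± 0.17 (SE), was the largest relative to its error among the members in the 5 contrasts tested, and it was 0.10 without both treated arrays numbered 2. Its other probe set, with a mean of 12.02, gave 0.06 for the same comparison and -0.03 to 0.10 for the other 3, where the lead probe set ranged from -0.25 to 0.02.

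Calr encodes calreticulin, the lectin chaperone that holds glycoproteins and binds calcium. Its level was 13.13, 13.09 and 13.12 in non-SP untreated, 12.96, 12.92 and 13.31 in SP untreated, 12.95, 12.71 and 13.06 in non-SP anti-EpCAM and 12.95, 12.60 and 13.08 in SP anti-EpCAM cells. In non-SP cells the 3 treated arrays lay below the 3 untreated ones, the only case among the 10 genes and 4 group comparisons in which arrays did not overlap. The difference there was -0.20 ± 0.17 (SE), with a 95% interval from -0.58 to 0.17, and it was -0.10 relative to the median of all genes. Without both treated arrays numbered 2 it was -0.11. The other 2 probe sets of Calr gave -0.08 and -0.05.

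Pdia4 encodes ERp72, a protein disulfide isomerase. It was at 10.43, 10.23 and 10.67 in non-SP untreated and at 10.64, 10.30 and 10.94 in SP untreated cells, and the SP array was the higher one at each number. With the antibody it was at 10.41, 10.70 and 10.12 in non-SP and at 10.39, 10.62 and 10.06 in SP cells, and the SP array was the lower one at each number. With arrays centred on their medians SP was higher in all 3 untreated and in 2 of 3 treated couples, so that this split in sign was lost. The steps between the arrays of one number, from -0.08 to 0.27, were small beside the range over the 12 arrays, which at 0.88 was the widest of the 10 genes. The interaction, the difference between the 2 fraction differences, was -0.24 ± 0.31 (SE), with a 95% interval from -0.91 to 0.43. With the replicate number as a block its SE was 0.13 and the interval ran from -0.53 to 0.05. For SP minus non-SP untreated cells, 0.19, the SE was 0.22 without and 0.09 with the block.

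Sdf2l1 and Dnajb9 encode partners of BiP: Sdf2l1 belongs to its chaperone complex, and Dnajb9 encodes ERdj4, a J protein. Sdf2l1 ran from 10.82 to 11.42 over the 12 arrays, and its group means were 11.14 ± 0.25, 11.19 ± 0.29, 11.15 ± 0.30 and 11.16 ± 0.28 (SD, n = 3) in the 4 groups, untreated before treated and non-SP before SP. Its 4 group differences thus stayed between -0.03 and 0.05, although single arrays differed by up to 0.60. Dnajb9 ran from 10.62 to 11.38, with group means of 11.08 ± 0.08, 11.11 ± 0.24, 10.88 ± 0.23 and 10.97 ± 0.13 (SD, n = 3) in the same order. Creld2, a luminal protein gene induced by ER stress, ran from 10.38 to 10.93 with group means of 10.67 ± 0.24, 10.74 ± 0.31, 10.65 ± 0.23 and 10.79 ± 0.04 (SD, n = 3).

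Herpud1 encodes a membrane protein of the ERAD machinery, which sends misfolded ER proteins to the proteasome. It was at 11.10, 10.90 and 10.81 in non-SP untreated, 11.37, 10.94 and 10.96 in SP untreated, 10.89, 10.78 and 10.92 in non-SP anti-EpCAM and 10.83, 11.20 and 10.97 in SP anti-EpCAM cells. The SP array was the higher one at 5 of 6 numbers, while the groups overlapped in each comparison. The difference of SP from non-SP cells was 0.14 ± 0.17 (SE) in treated cells, and -0.00 without both treated arrays numbered 2. The other probe set of Herpud1 gave 0.19 in untreated and 0.18 in treated cells. Edem1, which encodes a lectin that picks glycoproteins for ERAD, ran from 10.30 to 10.90, with group means of 10.51 ± 0.19, 10.62 ± 0.22, 10.67 ± 0.16 and 10.68 ± 0.21 (SD, n = 3) in the order used above. Its other probe set gave 0.09, -0.03, 0.04 and -0.08 for the 4 comparisons, against 0.10, 0.01, 0.16 and 0.06 for the lead one.

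Xbp1 was at 12.35, 12.26 and 12.46 in non-SP untreated, 12.64, 12.38 and 12.40 in SP untreated, 12.44, 12.47 and 12.17 in non-SP anti-EpCAM and 12.40, 12.70 and 12.02 in SP anti-EpCAM cells. Both its highest and its lowest array belonged to the SP anti-EpCAM group, whose SD of 0.34 was the largest of the 4. The difference of SP from non-SP cells was 0.12 ± 0.18 (SE) without and 0.01 ± 0.18 (SE) with the antibody. The other 3 probe sets of Xbp1 gave -0.00, 0.13 and -0.05 in untreated cells and 0.19, 0.18 and 0.07 in treated cells. Their correlations with the lead probe set over the 12 arrays were 0.54, 0.74 and 0.31, in the same order. No value used here separates spliced from unspliced Xbp1 mRNA.

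**Figure D1:**
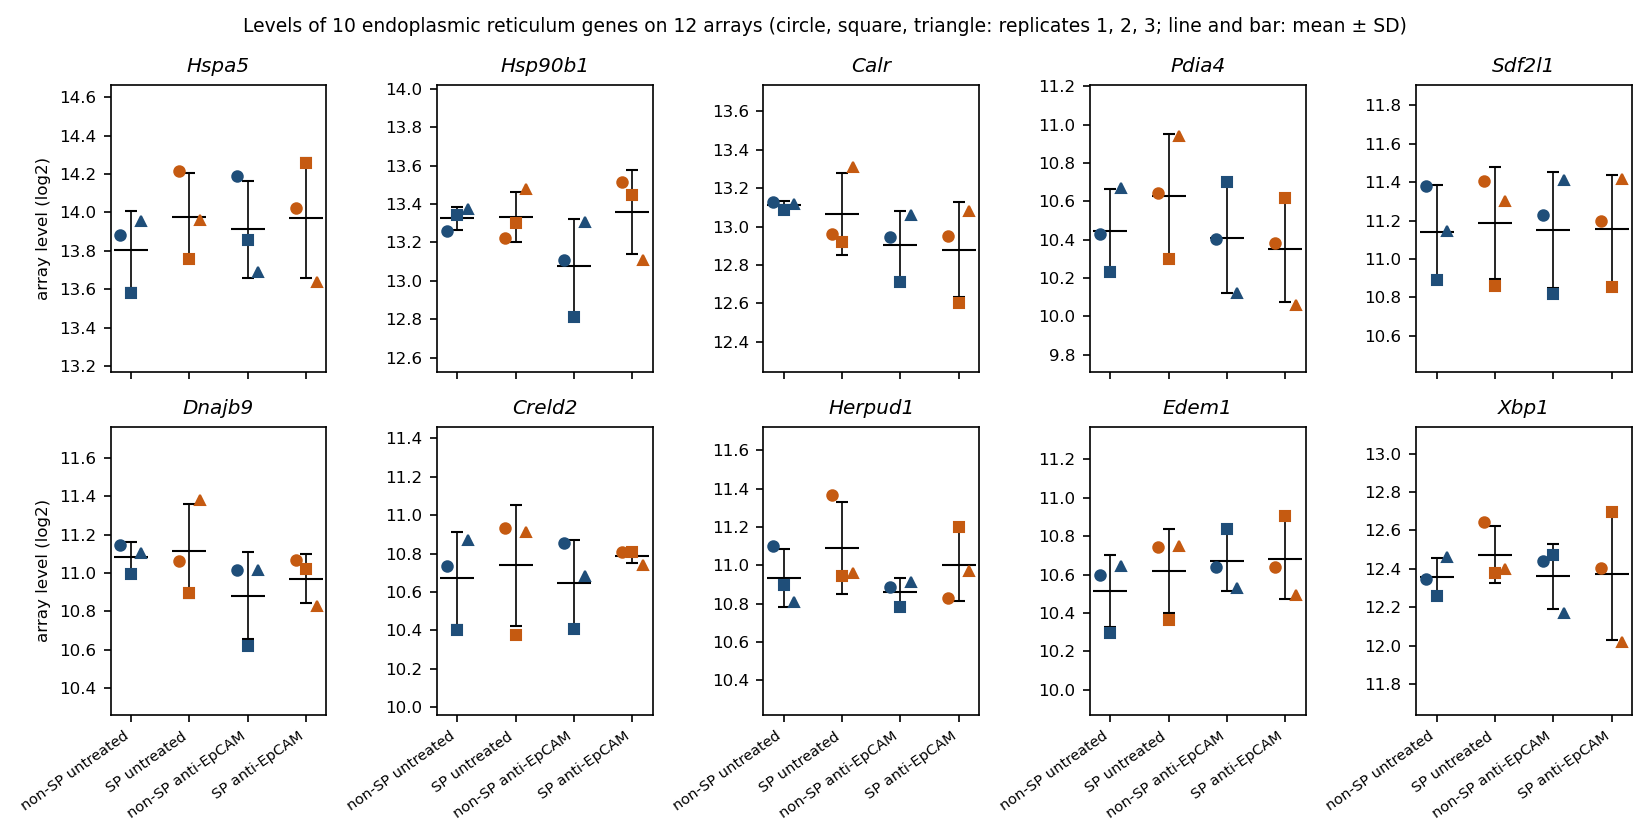
Deposited log2 level (vertical axis, of the same height in each panel) of the 10 genes in the 4 groups (horizontal axis), 1 point per array (blue for non-SP, orange for SP), with a line and bar for mean ± SD (n = 3) and the marker shape for the replicate number. The groups compared overlap in every panel, except that the 3 non-SP anti-EpCAM arrays of Calr, at 12.71 to 13.06, lie below the 3 non-SP untreated arrays, at 13.09 to 13.13.

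The first comparison asks whether dye-excluding cells differ from the others in these genes without the antibody. The 10 log2 differences of SP from non-SP untreated cells lay between -0.05 (Calr) and 0.19 (Pdia4), with a median of 0.09 against 0.01 over all genes. The value was above 0 for 9 of 10 genes and for 53.7% of all genes. Every 95% interval lay inside a 2-fold change (96.5% over all genes), and for 8 of 10 inside a 1.5-fold change (58.8% over all genes). With limma 0 of the 10 genes passed an adjusted p of 0.05, as did 0 (0%) of all genes, and 0 of the 10 and 4 of all genes had an unadjusted p under 0.05. With the replicate number as a block the last 2 counts were 0 and 305, and the lowest p of a member was 0.0711, for Pdia4. The fit without a block counts the deviation shared by arrays of one number as error. The SE of the 10 differences ran from 0.17 (Herpud1) to 0.22 (Sdf2l1) without and from 0.09 (Edem1) to 0.15 (Hsp90b1) with the block. All 3 SP values exceeded all 3 non-SP values for 0 of the 10 genes (1.24% of all genes), and the reverse held for 0 (1.13%).

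In treated cells the 10 differences of SP from non-SP lay between -0.06 (Pdia4) and 0.28 (Hsp90b1), with a median of 0.04 against -0.03 over all genes. The intervals lay inside a 2-fold change for 10 of 10 (93.4% of all genes) and inside a 1.5-fold change for 9 (48.0%). Again 0 of the 10 genes and 0 (0%) of all genes passed in limma, with 0 and 127 at an unadjusted p under 0.05 (0 and 1311 with the replicate block). Arrays of the 10 genes did not separate in either direction, against 0.572% of all genes higher and 1.78% lower. Without both treated arrays numbered 2 the median was -0.02, and 7 of 10 genes changed sign. Hspa5 then stood at -0.11, Xbp1 at -0.09, Dnajb9 at -0.07 and Creld2 at 0.01.

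The next comparisons set antibody-treated against untreated cells. They share arrays with those between fractions. In non-SP cells the treated minus untreated differences lay between -0.25 (Hsp90b1) and 0.16 (Edem1), with a median of -0.03 while that of all genes was -0.10. By limma 0 of the 10 genes and 0 (0%) of all genes passed, and 0 and 585 had an unadjusted p under 0.05. With a block on the number over all groups these last counts were 0 and 930. That block ties treated to untreated arrays of one number, whose deviations correlated at only -0.38 to -0.01. Only Calr had arrays that did not overlap, 1 of 10 lower against 6.62% of all genes, and 0 of 10 were higher against 1.19%. In SP cells the differences lay between -0.27 (Pdia4) and 0.06 (Edem1), with a median of -0.06 while that of all genes was -0.12. By limma 0 of the 10 genes and 0 (0%) of all genes passed there, with 0 and 835 at an unadjusted p under 0.05 (0 and 1158 with the block), and arrays separated for 0 of 10 against 0.434% higher and 8.04% lower. Without both treated arrays numbered 2 the medians of the 10 genes were -0.04 in the non-SP and -0.10 in the SP comparison. In SP cells Pdia4 then stood at -0.41, Xbp1 at -0.26 and Edem1 at -0.05. In non-SP cells Pdia4 stood at -0.18 and Sdf2l1 at 0.18.

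The sign of the antibody values depended on the scale, since the median of all genes was itself below 0. With arrays centred on their own medians, the medians of the 10 genes were 0.11 for non-SP and 0.13 for SP cells. Those of all genes were 0.04 and 0.08, and need not be 0 because the centring used all probe sets. After a further quantile normalization they were 0.08 and 0.01, against 0.03 and -0.01. The SP minus non-SP medians were 0.08 and 0.09 in untreated cells and 0.08 and 0.01 in treated cells under these scalings. For the interaction, 0 of the 10 genes and 0 (0%) of all genes passed in limma, with 0 and 43 at an unadjusted p under 0.05 (0 and 1003 with the replicate block), and 5 of 10 values lay on either side of the median of all genes. The interaction median of the 10 genes was -0.03, 0.02 with centred arrays, -0.06 after quantile normalization and -0.11 without both treated arrays numbered 2.

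**Figure D2:**
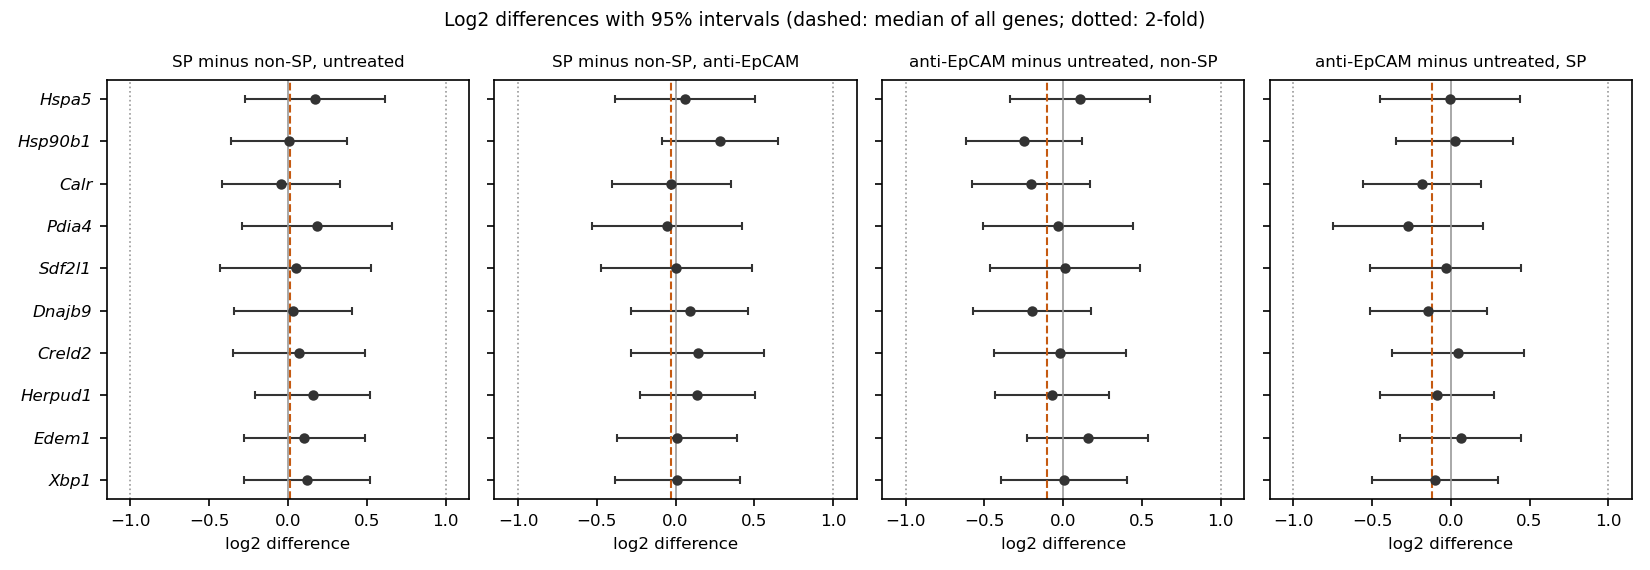
Log2 difference (horizontal axis) of each gene in the 4 group comparisons, with 95% intervals from limma fitted without a replicate block. The dashed line is the median of all genes and the dotted lines mark 2-fold. Every interval includes 0 and lies inside the 2-fold lines, the widest reach being -0.75 for Pdia4 in SP cells. Over all genes, 90.3 to 96.5% of intervals lay inside a 2-fold change, depending on the comparison.

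The arrays that share a replicate number and treatment deviated together over all genes. Such a couple of arrays is called a culture below, a term that the labels do not use for it. What the arrays of a couple shared in the experiment is not given in the labels. The SD between cultures is that of the mean of both arrays of a culture. The SD within is per array, after the mean SP minus non-SP difference of each treatment was removed. These SDs are set side by side and do not measure one quantity. For the 10 genes the SD between cultures of one treatment had a median of 0.19, against 0.13 within a culture. The SD between cultures was the larger one for 8 of 10. The medians over all genes were 0.24 and 0.15. With centred arrays the medians of the 10 genes were both 0.15 and the SD between cultures was the larger one for 5 of 10, while those of all genes were 0.23 and 0.14. Edem1, Sdf2l1 and Pdia4 had the largest SD between relative to that within, with 0.19, 0.28 and 0.28 between and 0.03, 0.05 and 0.05 within. The fraction differences removed, in untreated and treated cells, were 0.10 and 0.01 for Edem1, 0.05 and 0.00 for Sdf2l1, and 0.19 and -0.06 for Pdia4. Hsp90b1 and Dnajb9 were the exceptions, with 0.09 and 0.13 between and 0.22 and 0.18 within.

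By culture, the SP array was higher for 7, 5 and 9 of the 10 genes in untreated cultures 1, 2 and 3 and for 3, 8 and 4 in treated ones, while 53.4, 49.0, 50.4, 43.8, 38.1 and 53.1% of all genes were higher. With centred arrays the counts were 6, 5 and 9 in untreated and 8, 10 and 2 in treated cultures, so that treated culture 1 passed from a minority to a majority. Wide steps were seen in treated culture 2, where Hsp90b1 differed by 0.64, Herpud1 by 0.42, Creld2 and Hspa5 by 0.40 each and Dnajb9 by 0.40, while Calr differed by -0.11. Hsp90b1 also differed by 0.41 in treated culture 1. Treated culture 2 is the one whose arrays stood apart. Mitosis genes, a list of 10 measured genes, had a mean difference there of -1.09, against -0.61, -0.25 and 0.14 in untreated and 0.12 and 0.01 in the other treated cultures. By limma 0 of these 10 passed, as did 0 (0%) of all genes. Their medians were -0.24 and -0.33 between the fractions of untreated and treated cells, against 0.01 and -0.03 over all genes. Whether cell cycle or RNA quality had a part in the ER gene values was not tested.

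**Figure D3:**
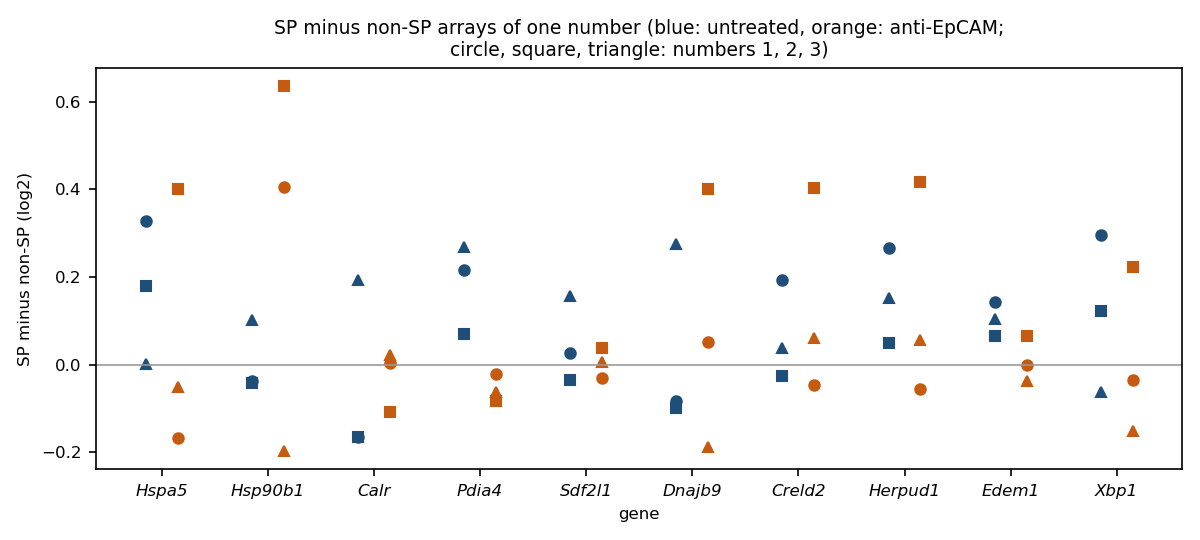
SP minus non-SP log2 difference (vertical axis) for each gene (horizontal axis) within the 3 untreated (blue) and 3 anti-EpCAM (orange) cultures, with the marker shape for the replicate number. The orange squares of treated culture 2 reach 0.64 for Hsp90b1, and Pdia4 has its 3 blue points above 0 and its 3 orange points below, a split that was lost with centred arrays.

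The 10 genes did not move as 1 block over the arrays. Of their 45 pairs, 36 had a positive and 9 a negative Pearson r over the 12 arrays, with a median of 0.29. Hspa5 and Xbp1 were the closest pair at 0.85, followed by Hsp90b1 and Dnajb9 at 0.77 and Hspa5 and Edem1 at 0.76. Calr ran against Xbp1 at -0.53, Edem1 at -0.44 and Hspa5 at -0.40. With centred arrays the same values were 0.85, 0.84, 0.75, -0.66, -0.42 and -0.47, and the count was again 36 to 9. Over the means of the 6 cultures the count was 33 to 12 with a median of 0.27, and with centred arrays 24 to 21 with a median of 0.04. The surplus of positive pairs was thus nearly lost when arrays were both centred and averaged by culture, where each r rests on only 6 means. Without both treated arrays numbered 2 the count over arrays was 38 to 7 with a median of 0.39, and 35 to 10 with a median of 0.22 when centred. On these arrays, with the values as deposited, Hspa5 and Xbp1 stood at 0.83, Calr and Xbp1 at -0.22 and Hspa5 and Calr at -0.23. Calr and Edem1 changed sign, to 0.24. These are descriptions over arrays that deviate together by number and share their scaling. Genes with an exact ERSE were on both sides, as Hspa5 and Calr show.

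**Figure D4:**
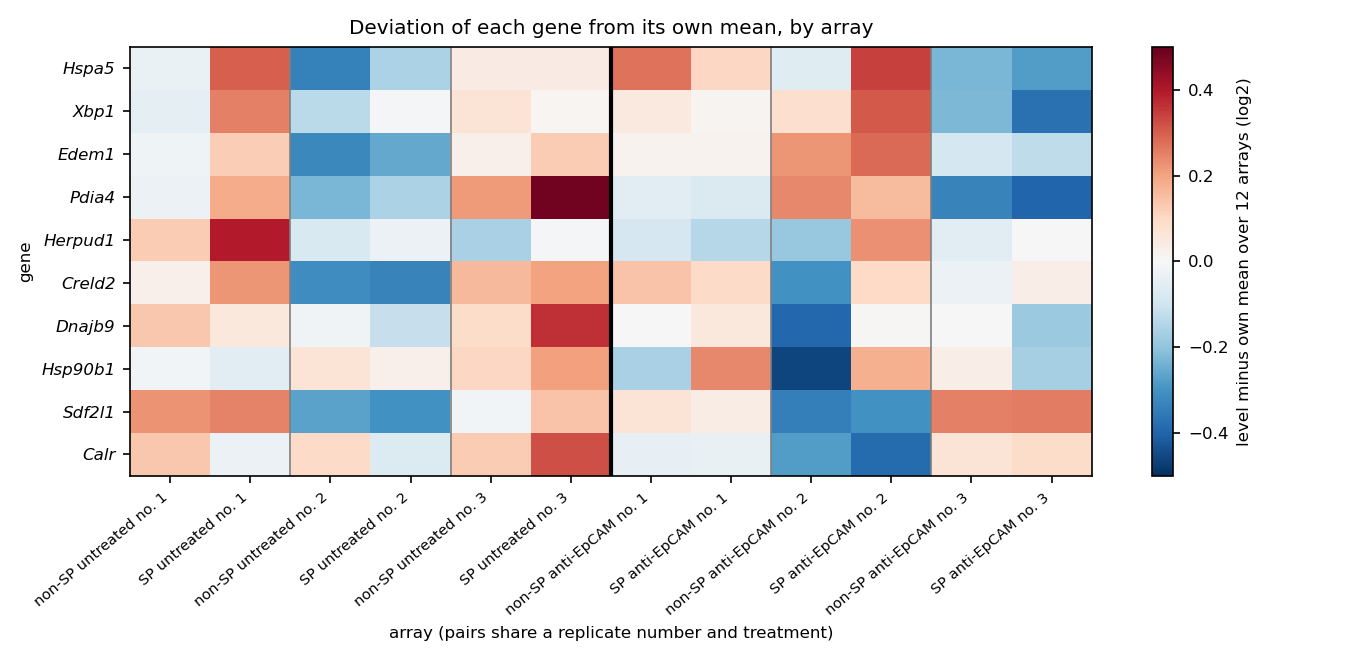
Level of each gene minus its own mean over the 12 arrays (colour, log2) by gene (rows, in an order set by hand) and array (columns). The arrays of a culture are side by side, with a thick line between untreated and anti-EpCAM. Hspa5, Xbp1 and Edem1 are highest on SP anti-EpCAM replicate 2, on which Calr has its lowest level, 12.60.

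The genes most like the mean pattern of the 10 were found over the 12 arrays among 11207 other genes with a mean of at least 6. They were Naa30 (r = 0.97), Abce1 (0.96), Cebpg (0.95), Strbp (0.95), Ccdc127 (0.95) and Taf5l (0.94). With centred arrays they were Rpl7l1 (0.95), Ccdc127 (0.95), Coprs (0.94), Tra2b (0.94), Abhd13 (0.94) and Azin1 (0.93), so that Ccdc127 stood in both. The 95th percentile over all those genes was 0.76 with the values as deposited. The members' own r with that mean, of which each is a part, ran from 0.21 for Calr to 0.87 for Creld2.

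Other genes of the pathway were looked at in 5 lists. Of 22 measured ER chaperone and foldase genes, 0 passed in either direction in any of the 4 group comparisons by limma. In each comparison 0 (0%) of all genes passed, which holds for the other lists too. The list medians were 0.02, -0.01, -0.06 and -0.06, in the order of the comparisons above. Those of all genes were 0.01, -0.03, -0.10 and -0.12. The values of single genes below are given without subtracting these medians. Ero1a, the oxidase that recharges disulfide isomerases, differed by 0.22 ± 0.23 (SE) between untreated SP and non-SP cells. Dnajc3, which encodes a BiP partner that also restrains Perk, differed by 0.30 ± 0.26 (SE) between treated SP and non-SP cells. The thioredoxin-like gene Erp29 stood at -0.40 ± 0.29 (SE) for the antibody in non-SP cells, and the peroxiredoxin gene Prdx4 at -0.30 ± 0.19 (SE) in SP cells.

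Of 18 measured ERAD genes, 0 passed by limma in any of these comparisons, and the medians were 0.02, 0.02, -0.10 and -0.09. Relative to the median of all genes, the antibody medians were 0.003 in non-SP and 0.026 in SP cells. Syvn1, the ubiquitin ligase at the centre of this pathway, differed by 0.18 ± 0.20 (SE) between treated SP and non-SP cells, and Derl2, part of the channel, by -0.26 ± 0.20 (SE) with the antibody in non-SP cells. Of 21 translocation and transport genes 0 passed, with medians of 0.02, -0.01, -0.11 and -0.12. The antibody medians of this list, relative to the median of all genes, were -0.005 in non-SP and -0.005 in SP cells. Kdelr3, a receptor that returns escaped ER proteins, stood at -0.35 ± 0.19 (SE) for the antibody in SP cells, and Sec11c, a signal peptidase subunit, at -0.41 ± 0.28 (SE) in non-SP cells.

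Of the 10 stress sensors and their processing genes 0 passed, with medians of -0.01, 0.01, -0.06 and 0.01. Mbtps1, the Golgi protease that cuts Atf6, stood at -0.19 and -0.16 for the antibody in non-SP and SP cells. Of the 11 outputs of the Atf4 arm 0 passed, with medians of 0.10, 0.02, 0.04 and -0.09. Trib3 and Asns differed by 0.40 ± 0.32 and 0.27 ± 0.25 (SE) between untreated SP and non-SP cells, where 6 of the 11 values were above 0 and 5 below. In treated cells Asns differed by 0.18 ± 0.25 (SE) and Nupr1, a stress-induced nuclear protein gene, by 0.20 ± 0.30 (SE) between SP and non-SP. Ddit4, an inhibitor of mTOR signalling, differed by -0.31 ± 0.24 (SE) with the antibody in non-SP cells. Across these 5 lists 0 genes had an unadjusted p under 0.05 by limma in any of the 5 contrasts. Of all 18194 genes, 4, 127, 585, 835 and 43 did, in the order of the comparisons above with the interaction last.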

How the data were processed

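Transcript levels came from 12 arrays of sorted A2C12 cells. The authors deposited log2 values, made with RMA per the submitters' processing notes. The software and its version were not given in the sources used here. The platform annotation named 34958 of 45101 probe sets with 1 symbol each, 932 with several and 9211 with none. Of the listed pathway and marker genes, 4 were found under another symbol.

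Group means over all 12 arrays were fitted with limma 3.58.1 in R 4.3.3 (no trend, no block, 8 residual degrees of freedom; two-sided, Benjamini-Hochberg over 18194 genes, adjusted p under 0.05), giving 5 contrasts. Figures used Python 3.11.15 and matplotlib 3.10.9. The fit was also run on simulated data in which the arrays varied independently, so that run does not cover arrays that deviate together. Members and lists were chosen with earlier results of these data known. Named are the 10 members, up to 2 genes per list with the lowest p in the contrast discussed, and the 6 genes of most similar pattern. The labels call the replicates biological without saying that they were separate cultures, so p-values measure the spread between these arrays. Their number limits the precision. The median 95% interval of the 10 genes reached 0.39 log2 units to either side.

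Replicate numbers were checked as pairs. Deviations from the group means correlated over all genes, for the arrays of both fractions with the same number, at 0.66, 0.84 and 0.55 in untreated and 0.75, 0.62 and 0.56 in treated cells, and for untreated and treated arrays of one number between -0.38 and -0.01. A block on the number within a treatment was therefore an alternative for the fraction contrasts. Errors and intervals are printed from the fit without a block unless a block is named. For the fraction contrasts they thus are not those of a paired comparison. The other alternatives were a block on the number over all groups for the antibody contrasts, array centring, a further quantile normalization, a level filter at 5, the mean of a gene's probe sets, other probe sets, a variance trend and leaving out each array. Leaving out both treated arrays numbered 2 was added after seeing the data.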

Additional observations from a re-analysis of the deposited data

Results flagged for a closer look

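With the values as deposited, Pdia4 was the one gene of the 10 whose SP minus non-SP difference had one sign in all 3 untreated cultures (0.22, 0.07 and 0.27) and the other in all 3 treated cultures (-0.02, -0.08 and -0.06). The share of all genes with such a split is not given, so it only describes this gene. With arrays centred on their medians SP was higher in 3 of 3 untreated and 2 of 3 treated cultures. The treated difference was then -0.01, so the split depended on the scale. The interaction was -0.24 in limma, with an unadjusted p of 0.452 (0.0924 with the replicate block) and an adjusted p of 1.00 (0.767 with the block), so the difference did not pass. Its other probe set, with a mean of only 5.25, gave -0.43.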

How the results depend on the processing

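Under every other setting tried, and without both treated arrays numbered 2, 0 genes and 0 of the 10 members were called in the contrasts each was run for. The lowest adjusted p of a member was 0.628, with the replicate block in the treated fraction contrast. One median over the 10 genes moved by more than the replicate SD of 0.15: that of the antibody in SP cells, from -0.06 to 0.13 with arrays centred on their medians. Leaving out 1 array at a time gave medians from 0.01 to 0.22 for SP minus non-SP untreated, 0.03 to 0.16 for SP minus non-SP treated, -0.13 to 0.04 for the antibody in non-SP and -0.16 to 0.02 in SP cells, and -0.13 to 0.05 for the interaction. The antibody median changed sign without non-SP untreated replicate 1 (0.01) or 3 (0.04), and in SP cells without SP untreated replicate 1 (0.02). Of 201 recomputed member differences per contrast, 18, 30, 29, 31 and 40 changed sign, in the same order of contrasts. As none was called, these were read as movements of a value and not as reversals of a result. At an unadjusted p under 0.05, leaving out 1 array gave 4 to 28, 18 to 906, 366 to 1203, 573 to 1098 and 14 to 464 genes.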

Other observations

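Beside the 4 members, 33 genes had an exact ERSE in their RefSeq window, of which 16 were measured and 6 stood in the pathway lists. Those were the lectin chaperone gene Canx, the BiP partner gene Dnajc3, the disulfide isomerase gene Pdia6, the oxidase gene Ero1b and the ERAD genes Syvn1 and Derl3. Over the 16 genes the median log2 difference was 0.03 between untreated and 0.00 between treated fractions, and -0.03 and -0.10 for the antibody in non-SP and SP cells, against 0.01, -0.03, -0.10 and -0.12 over all genes. This set was formed after the members' values were seen. Canx differed by 0.05 and 0.13 between fractions and by -0.14 and -0.05 with the antibody, and Pdia6 by 0.04, -0.01, -0.04 and -0.10 in the same order.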
